A study of Homo sapiens with 8 samples.

Results

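The aldo-keto reductases of the AKR1B and AKR1C subfamilies were followed by every probe whose gene name on the array was AKR1B1, AKR1B10, AKR1C1, AKR1C2, AKR1C3 or AKR1C4. This gave 9 of 41000 probes, covering 5 of the 6 genes among 30982 distinct gene names on the array. No probe carried the name AKR1C2, but 2 of the 4 AKR1C1 probes listed transcripts of both AKR1C1 and AKR1C2, so RNA of the pair is not separated by them. Whether RNA of one AKR1C gene also binds the probes named for another was not tested, since the probe sequences were not used here. The family was chosen because the intensities of AKR1C1, AKR1C3 and AKR1B10 differed between the treatment groups of these same arrays. The values of the members are therefore a description, and none of their differences carries a test.

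The cells were CAL-27, an established human line from a squamous carcinoma of the tongue, starved of serum for 24 h before treatment. Go was applied for 24 h at a dose that the labels leave out (n = 2 arrays), enzastaurin, an inhibitor of protein kinase C, for 24 h at 10 µM (n = 3 arrays), and the control group had 3 arrays. The series title groups both compounds as inhibitors of one kinase, and the labels name no vehicle for the control. Whether replicates were separate cultures is not stated, so the p-values given below for other genes measure the spread between these arrays, which may be technical. The labelled cell type was checked by its markers. Probes for 9 keratinocyte markers were above background on all 8 arrays, and so were 1 of 7 fibroblast markers (COL1A1), 4 of 7 leukocyte markers (CD3E, CD14, CD68 and HLA-DRA) and 1 of 5 endothelial markers (VWF). Above background on no array were PDGFRA and PDGFRB of the fibroblast list, PTPRC and LYZ of the leukocyte list and PECAM1, KDR and TEK of the endothelial list.

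Aldo-keto reductases are soluble enzymes that use NADPH to reduce aldehydes and ketones to alcohols. The AKR1C enzymes act on ketosteroids and prostaglandins, and the AKR1B enzymes act on glucose, retinal and aldehydes from lipid peroxidation. In squamous epithelia and their tumours several members are known targets of NRF2, the transcription factor released when its inhibitor KEAP1 is modified by electrophiles. The AKR1C genes lie beside each other on chromosome 10, and AKR1B1 and AKR1B10 lie near each other on chromosome 7.

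The sequences just upstream of the annotated starts are shown for the AKR1C genes because the shared AKR1C1 and AKR1C2 probes and that of AKR1C3 had like patterns over these arrays and because the copies are so alike. They are from RefSeq (GRCh38.p14), hold 250 bases ending at the base before the start, and run 5′ to 3′. Pairing with AKR1C1 was made with the 50 bases after each start included, which are not printed. Capitals mark bases that differ from their AKR1C1 partner or have none in that longer sequence. The windows are AKR1C1 at chr10:4963165-4963414 on the plus strand, AKR1C2 at chr10:5003858-5004107 on the minus strand, the start of AKR1C3 farther along the gene at chr10:5094164-5094413 on the plus strand, and AKR1C4 at chr10:5196587-5196836 on the plus strand.
AKR1C1: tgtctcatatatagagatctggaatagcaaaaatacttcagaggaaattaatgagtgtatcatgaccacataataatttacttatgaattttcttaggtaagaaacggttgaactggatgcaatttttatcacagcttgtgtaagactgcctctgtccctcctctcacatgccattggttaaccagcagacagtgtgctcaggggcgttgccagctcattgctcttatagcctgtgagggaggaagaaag
AKR1C2: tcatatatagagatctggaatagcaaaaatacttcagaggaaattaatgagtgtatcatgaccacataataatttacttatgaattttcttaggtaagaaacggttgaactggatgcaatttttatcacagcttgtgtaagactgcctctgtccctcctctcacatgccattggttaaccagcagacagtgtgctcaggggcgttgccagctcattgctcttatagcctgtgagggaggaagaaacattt
AKR1C3: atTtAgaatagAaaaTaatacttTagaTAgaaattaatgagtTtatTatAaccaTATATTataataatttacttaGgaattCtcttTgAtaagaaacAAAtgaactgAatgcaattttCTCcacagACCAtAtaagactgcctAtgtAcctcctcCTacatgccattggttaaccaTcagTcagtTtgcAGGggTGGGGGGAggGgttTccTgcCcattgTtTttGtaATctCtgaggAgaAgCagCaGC
AKR1C4: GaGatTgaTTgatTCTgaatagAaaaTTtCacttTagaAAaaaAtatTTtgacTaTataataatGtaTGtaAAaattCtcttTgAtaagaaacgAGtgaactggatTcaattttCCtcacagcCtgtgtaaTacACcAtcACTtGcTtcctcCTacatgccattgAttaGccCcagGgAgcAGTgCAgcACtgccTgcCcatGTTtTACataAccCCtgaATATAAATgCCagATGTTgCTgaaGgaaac

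All 250 bases of the AKR1C2 window paired with an identical AKR1C1 base. Of these partners 242 lie in the printed AKR1C1 window and the others just after its start. The alignment of this pair also held a gap of 4 bases, and the last printed bases of the windows do not match. In the printed AKR1C3 window, 184 of the 234 paired bases were identical to AKR1C1 (78.6%), and in AKR1C4, 164 of 233 (70.4%). At the other AKR1C3 start (chr10:5048531-5048780), which is not printed, 185 of 241 were identical (76.8%). Motifs were searched on both strands over the same 250 bases of each start. The core of the antioxidant response element, which NRF2 binds, was written as TGACNNNGC and occurs in 10.9% of 35116 such windows. The AP-1 site TGANTCA occurs in 6.57% of them and the xenobiotic response element core GCGTG in 32.2%. None of these letters was found in the AKR1C windows, which says only that they are not in these bases. GCGTG occurred once in each of the AKR1B1 windows. No window of AKR1B10 was among the sequences searched.

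The labels do not name the slides, which were inferred from spot positions. Control 1, 2 and 3 and Go 1 had mean horizontal positions of 10930.1 to 10951.0 µm and are taken as slide 1. Go 2 and enzastaurin 1, 2 and 3 had positions of 10897.1 to 10904.5 µm and are taken as slide 2. No slide held both enzastaurin and control arrays, so values within a slide exist only for Go 1 against the controls and for Go 2 against the enzastaurin arrays. The median of the authors' background-subtracted intensity over all probes was 38 to 56 per array. The summed intensity of the leukocyte markers on the array was 1206 to 1314 in Go arrays, 1840 to 2122 in enzastaurin arrays and 761 to 961 in control arrays. HLA-DRA made up most of that sum, with 761 and 1004 in Go arrays, 1636, 1681 and 1488 in enzastaurin arrays and 478, 432 and 572 in control arrays, and is singled out after its values were seen. After normalisation HLA-DRA was higher with enzastaurin than in control (1.11, limma adjusted p = 0.00112) and CD3E was lower (-0.64, limma adjusted p = 0.00186). CD14 and CD68 were at -0.05 and 0.06 and did not pass. LUM of the fibroblast list, above background on 7 arrays, was higher (0.55, limma adjusted p = 0.00139). DCN of the same list, above background on 2 arrays, was lower (-0.33, limma adjusted p = 0.0319). Of 9 keratinocyte markers 3 were called higher and 2 lower in this comparison, with EPCAM at 1.55 and TP63 at -0.76 among them. The keratinocyte markers summed to 68920 to 68950 in Go arrays, 76710 to 98850 in enzastaurin arrays and 54130 to 68170 in control arrays. These sums were not scaled between arrays, and their part in the results was not tested.

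Members are given on a pair of scales. The intensity is the authors' background-subtracted value, which was not scaled between arrays. The normalised log2 intensity was computed from the scanner tables and is the base of all differences and folds. A probe counted as above background on an array where its signal-to-noise score exceeded 3, and 7 of the 9 probes reached this on at least 2 arrays. In bulk RNA, more RNA per cell and more cells that express a gene cannot be told apart.

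AKR1C1 and AKR1C2 encode enzymes that inactivate progesterone and dihydrotestosterone. The first probe listing both (A_23_P257971) had intensities of 365 and 473 in Go arrays, 837, 1113 and 844 in enzastaurin arrays and 156, 168 and 210 in control arrays. Every enzastaurin array was above every Go array, and every Go array was above every control array. On the normalised log2 scale its mean was 8.79 ± 0.42 with Go (SD, n = 2), 9.67 ± 0.05 with enzastaurin (SD, n = 3) and 8.05 ± 0.08 in control (SD, n = 3). The difference was -0.87 between Go and enzastaurin (SE 0.157), 1.62 between enzastaurin and control (SE 0.141, 3.08-fold) and 0.75 between Go and control (SE 0.157, 1.68-fold). Both Go arrays lay between the other groups but apart from each other, and the Go against control difference was 0.45 without Go 2 and 1.04 without Go 1. The same 2 settings gave -1.17 and -0.58 for Go against enzastaurin.

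The second probe listing both genes (A_24_P220947) had intensities of 600 and 633 in Go arrays, 1199, 1722 and 1128 in enzastaurin arrays and 420, 379 and 541 in control arrays. The order of the groups was the same, with no overlap between any 2 of them. Its difference was -0.82 between Go and enzastaurin (SE 0.124) and 1.01 between enzastaurin and control (SE 0.111, 2.02-fold). Go against control gave 0.19 (SE 0.124), which shrank to 0.05 without Go 2. The ratio of the first probe to the second within an array averaged -0.53 with Go, -0.48 with enzastaurin and -1.09 in control on the log2 scale. The ratio was lower on every control array than on any treated array, of which the lowest was Go 1 at -0.69, although the array lists the same pair of genes for both probes.

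The probe listing AKR1C1 alone (A_24_P152968) was dim, with intensities of 61 and 37 in Go arrays, 55, 94 and 76 in enzastaurin arrays and 52, 43 and 41 in control arrays. It was above background on 7 arrays, the exception being Go 1. On the intensity scale every enzastaurin array was above every control array, but the normalised values of the 2 groups overlapped. Its differences were -0.23 between Go and enzastaurin (SE 0.106), 0.14 between enzastaurin and control (SE 0.0948) and -0.09 between Go and control (SE 0.106). Each of these changed sign under 1 of 18 alternative settings. The fourth AKR1C1 probe (A_24_P312578), designed from a cDNA clone, was above background on no array and read 2 and 9 in Go arrays, 13, 26 and 16 in enzastaurin arrays and 0.5, 1 and 1 in control arrays. The 4 probes named AKR1C1 therefore did not give a single answer for the size of the difference. An offset of 50, added to all intensities before log2 was taken, makes differences smaller at dim probes. With an offset of 16 the AKR1C1-only probe gave -0.32 between Go and enzastaurin. How far the offset accounts for the unlike sizes was not tested.

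AKR1C3 makes testosterone from androstenedione and prostaglandin F from its precursors. Its probe (A_23_P138541) had intensities of 250 and 284 in Go arrays, 470, 603 and 459 in enzastaurin arrays and 200, 160 and 203 in control arrays. Enzastaurin arrays stood above all others, and Go and control arrays overlapped after normalisation. The normalised mean was 8.26 ± 0.24 with Go (SD, n = 2), 8.88 ± 0.04 with enzastaurin (SD, n = 3) and 8.10 ± 0.13 in control (SD, n = 3). The difference was -0.62 between Go and enzastaurin (SE 0.119) and 0.78 between enzastaurin and control (SE 0.107, 1.71-fold). Go against control gave 0.15 (SE 0.119) and was -0.01 without Go 2 and 0.32 without Go 1. AKR1C4, the member best known from liver, had intensities of 3 and 3 in Go arrays, 5, 4 and 11 in enzastaurin arrays and 4, 3 and 4 in control arrays. It was not above background on any array and is given no fold.

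AKR1B10 reduces retinal and reactive aldehydes and is known from intestine and from squamous cell carcinoma of the lung. Its first probe (A_24_P129341) had intensities of 162 and 158 in Go arrays, 340, 357 and 322 in enzastaurin arrays and 128, 95 and 125 in control arrays. The difference was -0.67 between Go and enzastaurin (SE 0.0903), 0.84 between enzastaurin and control (SE 0.0808, 1.79-fold) and 0.18 between Go and control (SE 0.0903). Enzastaurin arrays were the highest, and both Go arrays were just above the highest control array. The second AKR1B10 probe (A_23_P93641) had intensities of 223 and 131 in Go arrays, 331, 391 and 310 in enzastaurin arrays and 173, 146 and 167 in control arrays. Its difference was -0.60 between Go and enzastaurin (SE 0.12), 0.45 between enzastaurin and control (SE 0.107, 1.36-fold) and -0.15 between Go and control (SE 0.12). The 2 probes of this gene had the same sign in the comparisons with enzastaurin and opposite signs for Go against control. The enzastaurin arrays were again the highest at both, while Go and control arrays overlapped at the second.

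AKR1B1, or aldose reductase, converts glucose to sorbitol. Its probe (A_23_P258190) had intensities of 1610 and 1112 in Go arrays, 1574, 1912 and 1555 in enzastaurin arrays and 1520, 1156 and 1407 in control arrays. On this unscaled measure every enzastaurin array was above every control array by a narrow margin. After normalisation the differences were -0.11 between Go and enzastaurin (SE 0.136), -0.20 between enzastaurin and control (SE 0.121) and -0.31 between Go and control (SE 0.136). All 3 pairs of groups overlapped. The sign of the enzastaurin against control value turned to positive under 2 of the 18 alternatives, with 0.13 under median scaling and 0.06 with the slide as a block.

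**Figure D1:**
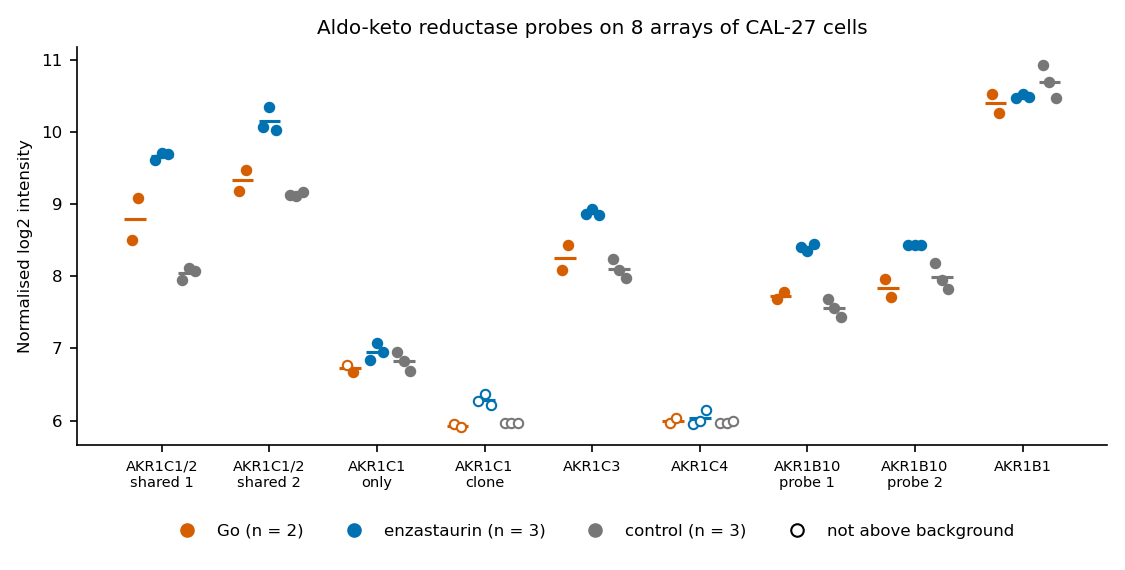
Normalised log2 intensity of the 9 family probes (vertical axis) on each array, grouped by probe along the horizontal axis, with Go in orange, enzastaurin in blue and control in grey. Points are arrays, bars are group means and open points were not above background; shared 1 and shared 2 are A_23_P257971 and A_24_P220947, and enzastaurin arrays stand highest at both, at AKR1C3 and at both AKR1B10 probes but not at AKR1B1. Levels of different probes cannot be compared.

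Set side by side, the 7 probes above background on at least 2 arrays had a median log2 difference of -0.62 for Go against enzastaurin, beside 0.01 over all 24772 probes tested. The limma fit put 5 of the 7 below the threshold of an adjusted p of 0.05 in the lower direction, where 2.1% of all probes were so called, and 6 had Go arrays all below the enzastaurin arrays, where 22% of all probes did. For enzastaurin against control the median was 0.78, beside -0.07 over all probes. There 5 of the 7 were called higher, against 22% of all probes, and 5 had groups that did not overlap, against 27.7%. The median for Go against control was 0.15, beside -0.07 over all probes. In that comparison 1 of the 7 was called higher, against 13.2%, and 3 had Go arrays above all controls, against 22.7%. Because the family was chosen for these differences, the counts describe it and do not test it. The comparisons share arrays, so they are not independent of each other.

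**Figure D2:**
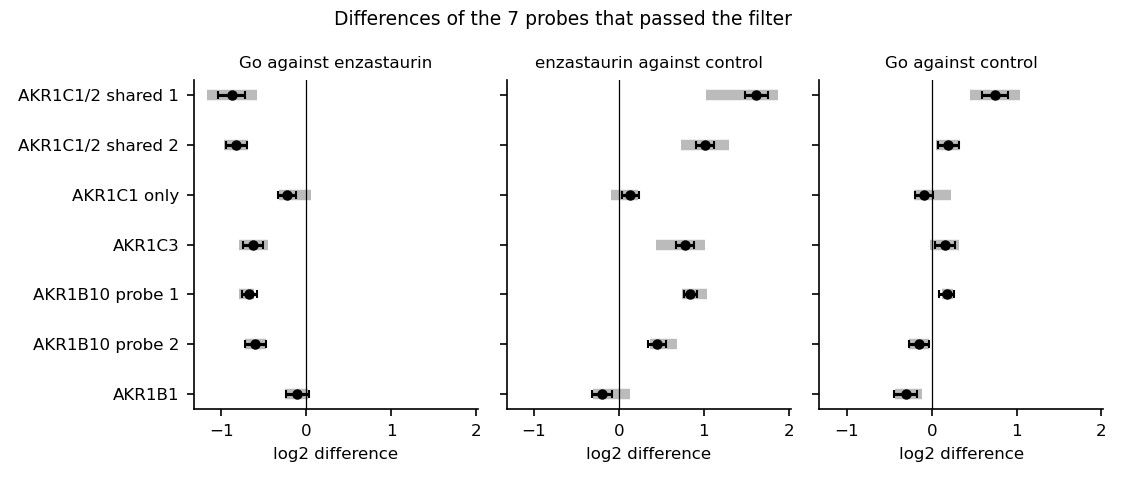
Log2 difference (horizontal axes) of the 7 probes that passed the filter in Go against enzastaurin, enzastaurin against control and Go against control. Points are the fitted differences with their standard errors and grey bars the range over the main and alternative settings; both shared AKR1C probes, AKR1C3 and AKR1B10 stay below 0 in the first panel and above 0 in the second under every setting run.

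Values within a slide compare arrays of the same inferred slide. On slide 1, Go 1 minus the control mean was 0.45 for the first shared AKR1C1 and AKR1C2 probe and 0.05 for the second. It was -0.01 for AKR1C3, 0.13 and -0.03 for the first and second AKR1B10 probes and -0.18 for AKR1B1, so the first shared probe stood farthest from the controls. On slide 2, Go 2 minus the enzastaurin mean was -0.58 and -0.68 for the shared probes, -0.45 for AKR1C3, and -0.62 and -0.72 for AKR1B10. It was -0.27 for the AKR1C1-only probe and -0.24 for AKR1B1. With the slide as a block, enzastaurin against control was 1.03 and 0.73 for the shared probes, 0.44 for AKR1C3, 0.69 and 0.75 for the second and first AKR1B10 probes, and 0.06 for AKR1B1. These block values join the Go arrays of both slides and so rest on 1 Go array per slide. Between the Go arrays, Go 2 exceeded Go 1 by 0.59 at the first shared probe, 0.28 at the second and 0.34 at AKR1C3, whereas it was lower by 0.24 at the second AKR1B10 probe and by 0.26 at AKR1B1.

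**Figure D3:**
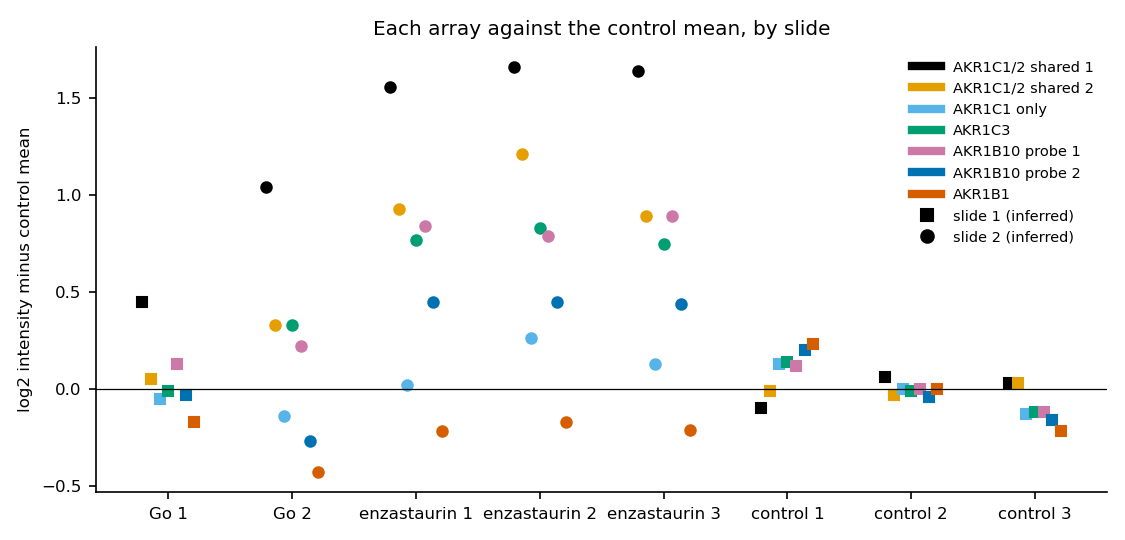
Normalised log2 intensity minus the control mean (vertical axis) for each probe on each array (horizontal axis), with colours for probes, squares for arrays of slide 1 and circles for arrays of slide 2. The first shared AKR1C probe is raised on both Go arrays, by 0.45 on Go 1 and by 1.04 on Go 2, and the AKR1B1 points lie below 0 on all Go and enzastaurin arrays.

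Over the 8 arrays, which share slides and treatments, the members followed each other to different degrees. The first AKR1B10 probe and AKR1C3, from different chromosomes, had a Pearson r of 0.978. The second shared AKR1C probe and AKR1C3 had an r of 0.969, and the shared probes had 0.95 between them. The probes of AKR1B10 had an r of 0.863 with each other, which was below that of the first of them with AKR1C3. AKR1B1 gave values of -0.553 to 0.451 with the other probes. These correlations are descriptions over arrays in 3 groups.

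The genes outside the family most like the brightest probe of each member were taken from 10211 genes above background on all 8 arrays. For the second shared AKR1C probe they were NEDD4, a ubiquitin ligase (r = 0.996), UFSP2, a protease for the modifier UFM1 (0.994), and CNN3, an actin-binding calponin (0.991). For AKR1C3 they were the tight junction protein CLDN12 (0.992), the mitochondrial co-chaperonin HSPE1 (0.988) and HPS1 (0.985). For the second AKR1B10 probe they were TMEM19 (0.978), the G protein subunit GNB2 (0.977) and the cell cycle inhibitor CDKN1A (0.975). An r above 0.95 was found for 63 genes with the AKR1C probe, for 61 with AKR1C3 and for 17 with AKR1B10. CNN3 had differences close to those of the AKR1C probe, at -0.79 for Go against enzastaurin and 0.95 for enzastaurin against control. The differences of NEDD4 were smaller, at -0.26 and 0.35.

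No other aldo-keto reductase was called higher with enzastaurin than in control. Of 7 measured, 4 were lower with enzastaurin than in control, none was higher and 3 did not pass limma's threshold. Of all 12641 genes 53.6% passed it, 17.6% higher and 36% lower, and the counts of each list in this comparison stand beside these shares. AKR7L was at -0.65 log2 (SE 0.0976, limma adjusted p = 0.00161) and AKR7A2, an aflatoxin aldehyde reductase, at -0.35 (SE 0.0726, limma adjusted p = 0.00557). AKR1A1, the general aldehyde reductase, fell by 0.33 in the same comparison (adjusted p = 0.0427 by limma), but was at 0.01 under median scaling. KCNAB2, a potassium channel subunit of the same fold, fell by 0.21 (adjusted p = 0.0391 by limma), with 1 of its 2 probes on that side. With the slide as a block none of these calls held, with AKR7L at -0.66, AKR7A2 at -0.33, AKR1A1 at -0.32 and KCNAB2 at -0.28. AKR7A2 was also uncalled under median scaling. None of the 7 passed limma's threshold for Go against enzastaurin, where 5.7% of all genes did (3.46% higher, 2.24% lower), or for Go against control, where 29.3% did (10.9% higher, 18.5% lower).

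NRF2 itself and its inhibitor showed no call in the main setting. Each was called under at least 1 alternative, NRF2 in Go against control and KEAP1 in enzastaurin against control. NFE2L2, the gene of NRF2, gave 0.18 in Go against enzastaurin, -0.07 in enzastaurin against control and 0.11 in Go against control, with limma adjusted p-values of 0.329, 0.523 and 0.422. KEAP1 gave 0.06, -0.22 and -0.16 in the same order, with limma adjusted p-values of 0.783, 0.1 and 0.296. Among 8 regulators 1 was higher and 4 lower with enzastaurin than in control, beside 17.6% and 36% of all genes. The small MAF proteins, which pair with NRF2 on DNA, were among those lower, with MAFF at -1.24 (SE 0.172, limma adjusted p = 0.00125), MAFG at -0.50 and MAFK at -0.47. Probes disagreed in sign for MAFG and MAFK. SQSTM1, the autophagy receptor that binds KEAP1, was the one that rose, by 0.59 (limma adjusted p = 0.00178). With the slide as a block SQSTM1 was at 0.45, MAFG at -0.21 and MAFK at -0.59, all uncalled, while MAFF kept its call. MAFK was the only regulator called between the compounds, at 0.51 higher with Go than with enzastaurin (limma adjusted p = 0.0492). That call was lost under 12 of 19 alternatives, and with the slide as a block MAFK had a limma adjusted p of 0.068 and MAFF was called instead, at 0.79 (limma adjusted p = 0.0376). With Go, SQSTM1 rose by 0.34 and MAFF fell by 0.79 relative to control, with limma adjusted p-values of 0.0396 and 0.0244. Neither call held without 1 of the Go arrays, with MAFF at -0.45 without Go 1 (limma adjusted p = 0.0545) and SQSTM1 uncalled without Go 2.

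NRF2 targets outside the family moved both ways with enzastaurin against control. Of 25 measured, 7 were higher, 4 were lower and 14 did not pass, with a median of -0.05 beside -0.14 over all genes. Thioredoxin, TXN, rose by 1.29 (SE 0.194, limma adjusted p = 0.00163), whereas the reductase that recycles it, TXNRD1, fell by 0.82 (SE 0.127, limma adjusted p = 0.00185). HMOX1, which degrades heme, rose by 0.37 (limma adjusted p = 0.00298). The ferritin light chain FTL rose by 0.60 at its brightest probe (limma adjusted p = 0.00155), but only 1 of its 3 probes had that sign. The NADP-dependent malic enzyme ME1 fell by 0.48 at its brightest probe (limma adjusted p = 0.00578), and its other probe had the opposite sign. With the slide as a block none of these calls held. TXN was then at 0.42, TXNRD1 at -0.30, HMOX1 at 0.39, FTL at 0.43 and ME1 at -0.40. NQO1, the quinone reductase often used as a readout of NRF2, was at -0.05 (limma adjusted p = 0.581), and GCLM, of glutathione synthesis, at -0.16 (limma adjusted p = 0.126). SLC7A11, the cystine transporter, was at 0.25 (limma adjusted p = 0.0667) and was above background on 1 control array.

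Between the compounds, 1 of the 25 targets was called, and none was higher with Go. OSGIN1 was 0.45 lower with Go than with enzastaurin (SE 0.0857, limma adjusted p = 0.0312), a call lost under 7 of 19 alternatives. It was 0.35 higher with enzastaurin than in control (limma adjusted p = 0.00702) and at -0.10, uncalled, for Go against control. HMOX1 gave -0.30 in that comparison (limma adjusted p = 0.0599) and TXNRD1 0.48 (limma adjusted p = 0.101). TXNRD1 differed between the Go arrays, with 0.22 without Go 1 and 0.74 without Go 2 (limma adjusted p = 0.219 and 0.00536). NQO1 gave 0.15, GCLM -0.05 and SLC7A11 0.02, with limma adjusted p-values of 0.312, 0.788 and 0.945. For Go against control 3 were higher, namely TXN at 0.86, FTL at 0.48 and the pentose phosphate enzyme TALDO1 at 0.41, and 2 were lower, of which ME1 was at -0.42. Their limma adjusted p-values were 0.0263 for TXN, 0.0171 for FTL, 0.0216 for TALDO1 and 0.0298 for ME1. The probes of FTL, TALDO1 and ME1 did not all share those signs. TXN was at 0.42 without Go 2 (limma adjusted p = 0.0681) and at 1.29 without Go 1, and the other 3 calls were lost without Go 2 as well. TXNRD1, at -0.33 in this comparison (limma adjusted p = 0.104), was at -0.59 without Go 1 (limma adjusted p = 0.00467) and at -0.07 without Go 2.

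Among other carbonyl and aldehyde enzymes, calls again went both ways. DHRS7, a short-chain reductase of retinal and steroids, was 0.63 higher with enzastaurin than in control (SE 0.0669, limma adjusted p = 0.00061) and 0.73 lower with Go than with enzastaurin (limma adjusted p = 0.00503). It kept both calls under all 19 alternatives. Of the 20 measured enzymes 4 were higher and 4 lower with enzastaurin than in control, with the aldehyde dehydrogenase ALDH9A1 at 0.82 and the carbonyl reductase CBR4 at 0.68 among the higher and ALDH7A1 at -0.53 among the lower. ALDH9A1 had a limma adjusted p of 0.00985, but its value was -0.07 with the slide as a block. With that block CBR4 was at 0.55 and ALDH7A1 at -0.30, and neither was called. ALDH1A3, which makes retinoic acid, was 0.69 higher with Go than with enzastaurin (limma adjusted p = 0.033). Go against control gave 4 higher and 3 lower, among them CBR4 at 0.48, ALDH1A3 at 0.50, ADH5 at -0.65 (2 of 3 probes on that side) and ALDH3A2 at -0.50. Without Go 2, ADH5 was at -0.38 and ALDH1A3 at 0.29, and with the slide as a block ALDH3A2 was at -0.36. The calls of ADH5, ALDH1A3 and ALDH3A2 were lost under both settings, while CBR4 kept its call.

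Enzymes of steroid and prostaglandin metabolism, which share substrates with the AKR1C group, divided as well. Of 23 measured, 4 were higher and 8 lower with enzastaurin than in control. HSD17B12, an enzyme of fatty acid elongation, rose by 0.95 (SE 0.0799, limma adjusted p = 0.000372) with 2 of 3 probes on that side, while HSD17B1, which makes estradiol, fell by 2.29 at its brightest probe (limma adjusted p = 0.00135) with 3 of 5 probes on that side. PTGDS, a prostaglandin D synthase, fell by 3.86 (SE 0.589, limma adjusted p = 0.00174), and the cyclooxygenase PTGS1 fell by 0.80 (limma adjusted p = 0.000466). With the slide as a block PTGDS was at -2.43 and HSD17B1 at -1.06, and neither was called. HSD17B12 at 0.88 and PTGS1 at -0.65 kept their calls. Between the compounds PTGS1 was 0.47 higher with Go than with enzastaurin, and the cholesterol synthesis enzyme HSD17B7 and the inducible cyclooxygenase PTGS2 were lower by 0.45 and 0.32. Their limma adjusted p-values were 0.0256 for PTGS1, 0.0265 for HSD17B7 and 0.0464 for PTGS2. With the slide as a block none of the 3 was called, with limma adjusted p-values of 0.059, 0.0501 and 0.0853 in that order. In Go against control PTGDS was at -3.05 and HSD17B1 at -1.56, and PTGES, a prostaglandin E synthase, was at 0.80 and HSD17B12 at 0.66 (1 of 3 probes on that side), with 3 genes higher and 6 lower in all. HSD17B1 was at -0.95 without Go 2. With the slide as a block PTGDS was at -2.34 and PTGES at 0.86. The calls of HSD17B1, PTGDS and PTGES were lost under both settings, while HSD17B12 kept its call.

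Genes of retinoid handling are listed because AKR1B10 reduces retinal. Of 14 measured, 2 were higher and 2 lower with enzastaurin than in control. The retinol dehydrogenases RDH10 and RDH11 were at 0.96 (1 of 2 RDH10 probes on that side) and 0.35. DHRS3 was at -0.81 and the binding protein CRABP1 at -0.51. With the slide as a block RDH10 was at 0.36, RDH11 at 0.30, DHRS3 at -1.56 and CRABP1 at -0.43, and none was called. DHRS3, which reduces retinal, was 1.36 higher with Go than with enzastaurin (SE 0.263, limma adjusted p = 0.0329), opposite in direction to both AKR1B10 probes. For Go against control RDH10 at 1.41, ALDH1A3 at 0.50 and the receptor RARG at 0.45 were higher, with limma adjusted p-values of 0.00641, 0.0305 and 0.0142, and none was lower. One of the probes of RARG had the opposite sign. The calls of ALDH1A3 and RARG were lost without Go 2 and with the slide as a block, while RDH10 kept its call under both.

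**Figure D4:**
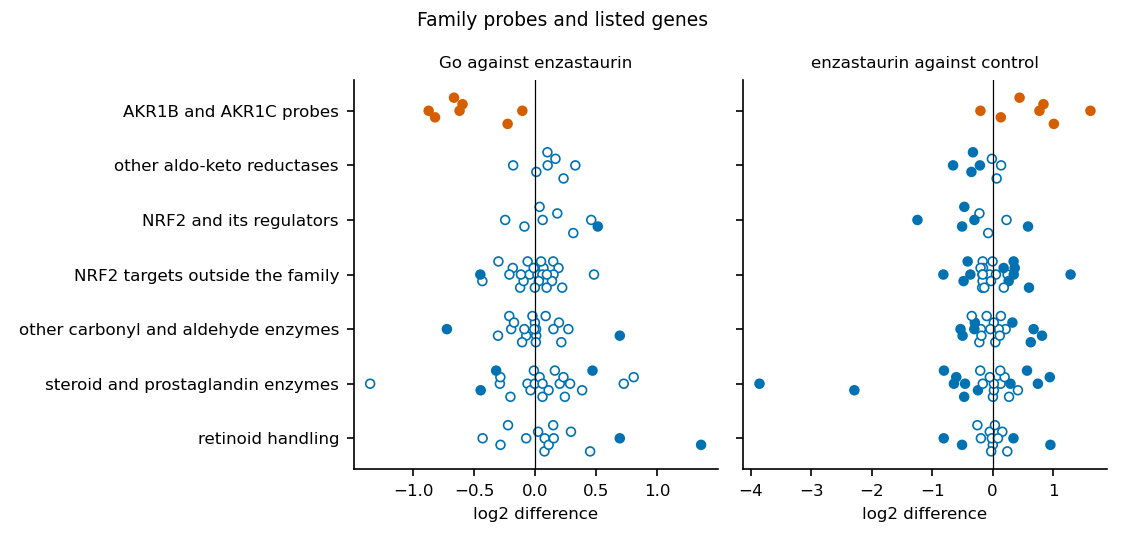
Log2 difference (horizontal axes, with different ranges) of the 7 family probes in orange and of the listed genes in blue, one row per list, for Go against enzastaurin and enzastaurin against control. Filled blue points passed an adjusted p of 0.05 by limma and open ones did not; the family points lie below 0 on the left, and on the right all but AKR1B1 lie above 0.

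Across the lists 96 genes were tested, and limma called 8 between the compounds, 44 between enzastaurin and control and 25 between Go and control, where 5.7%, 53.6% and 29.3% of all genes were called. With the slide as a block, 6 listed genes were called for enzastaurin against control, and 21 of the 25 named calls of that comparison were lost. The 4 named calls kept there and under every other alternative were those of DHRS7, HSD17B12, PTGS1 and MAFF. The slide block also ended 4 of the 8 named calls of Go against enzastaurin and 12 of the 16 of Go against control. Go against enzastaurin gave 1 called gene without control 2 or without any single enzastaurin array. For Go against control, 5 were called without control 2, 7 without Go 2, 11 without control 1 and 40 without control 3, and no named call of that comparison was kept under all alternatives.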

How the data were processed

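Total RNA of 8 CAL-27 samples was labelled with Cy3 and hybridised to single-colour arrays of 45220 spots, per the labels. The file headers name the recorded channel for red light, whereas Cy3 is read in green; the tables hold no other channel. The scanner tables deposited by the authors hold, per the file headers, foreground and background pixel intensity, the percent of pixels at saturation and a signal-to-noise score, all before normalisation. A deposited value table holds the authors' background-subtracted intensity, with a floor of 0.5 and no scaling between arrays, as found by comparison with the scanner tables. A genome build is not given in the sources used here.

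The annotation columns run end for end against the spots. As deposited, ranks in the scanner tables and the value table correlated at 0.00724 to 0.013 across probes, and with the annotation turned round at 0.99 to 0.994. The turned annotation was used.

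Foreground means and background medians were corrected with normexp (offset 50), put on the log2 scale and quantile normalised, and spots of a probe were averaged. Probes with a signal-to-noise score above 3 on at least 2 arrays were kept (24772 of 41000). limma 3.58.1 in R 4.3.3 fitted the 3 groups together (5 residual and 2.97 prior degrees of freedom), and p-values were adjusted by Benjamini-Hochberg over all probes kept, with a threshold of 0.05. Outside the family each gene was taken at its probe of highest mean (12641 genes). The number of arrays limits the precision, since arrays give no counts. Alignments were made with Biopython 1.88.

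Genes named are all family probes, up to 4 called members with the largest difference per list and comparison, 8 genes given in any case (NFE2L2, KEAP1, NQO1, HMOX1, TXNRD1, GCLM, SLC7A11 and AKR1A1) and the 3 genes most correlated with each of AKR1C1, AKR1C3 and AKR1B10. Members, lists and rules were chosen with earlier results of these data known. Alternatives changed the background correction, the pixel summary, the scaling, the filter, the source of the values, the samples and the blocks.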

Additional observations from a re-analysis of the deposited data

How the results depend on the processing

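The first number here is the mean log2 difference over the family probes, which was -0.56 in Go against enzastaurin, 0.66 in enzastaurin against control and 0.10 in Go against control. Median scaling gave -0.68, 0.88 and 0.20, all 9 probes without the filter on dim probes -0.48 and 0.56 in the first 2 comparisons, and the slide as a block 0.56 for enzastaurin against control. Leaving out 1 array gave -0.61 to -0.51, 0.61 to 0.71 and 0.05 to 0.15. Of 378 member values under the alternatives, 342 stayed within 1 SD between replicates. That count includes settings that cannot change a difference, such as leaving out an array of the group not compared or fitting only the 2 groups. It therefore overstates how steady the values were. The count of listed genes called, 8, 44 and 25 in the main setting, was 5 for Go against enzastaurin under median scaling and 1 to 13 without 1 array. It was 6 for enzastaurin against control with the slide block and 37 to 51 without 1 array. For Go against control it was 5 to 40 without 1 array, 7 with the slide block, and 0 by limma with only those 2 groups, where 30 of 96 had an unadjusted p under 0.05.

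Whether the replicate numbers pair the arrays cannot be settled from these values. Same-numbered arrays deviated from their group means with correlations of -0.148 to 0.161, and differently numbered arrays with -0.213 to 0.213. The deviations of the 2 Go arrays mirror each other, so these correlations are not independent. With the replicate number as a block the family means were -0.59, 0.66 and 0.07, and 2 listed genes were called for Go against enzastaurin.

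Signs of some uncalled or unsteady genes turned; the cause was not tested. For Go against enzastaurin AKR1A1 was -0.0505 with median scaling and -0.0313 with the mean of its probes, GCLM 0.0129 without Go 2, and KEAP1 -0.0957 with median scaling and -0.0738 without Go 1 or with the slide block, against 0.195 without Go 2. SLC7A11 was -0.00925 in the value table, -0.0171 without enzastaurin 3 and -0.153 without Go 1 or with the slide block, against 0.188 without Go 2. For enzastaurin against control median scaling gave 0.0118 for AKR1A1, 0.119 for GCLM, 0.126 for KEAP1, 0.273 for NFE2L2 and 0.112 for NQO1. The slide block gave -0.0689 for ALDH9A1, 0.0505 for KEAP1, 0.189 for NFE2L2 and 0.106 for NQO1. The 75th percentile gave 0.0166 for NFE2L2 and -0.0977 for SLC7A11, and the mean of the probes 0.347 for ME1 and 0.139 for NFE2L2. For Go against control the mean of the probes gave -0.0663 for FTL, 0.174 for ME1 and -0.0575 for RARG, and median scaling gave 0.0305 for KEAP1. NFE2L2 was -0.0225 without Go 1, against 0.239 without Go 2 and at most 0.292 over all alternatives.

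Scaling to the 75th percentile moved the median of all probes to -0.18 between enzastaurin and control and -0.11 between Go and control. The share of called probes that were higher was 53% in Go against enzastaurin, 41.8% in enzastaurin against control and 44.6% in Go against control. It was 61.6%, 30.8% and 43% at the 75th percentile and 28.5%, 64.8% and 72.2% with median scaling. Over all probes 1108 were called for Go against enzastaurin, 13033 in enzastaurin against control and 7349 in Go against control, and with the slide block 1318, 867 and 1386.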
